A study of Mus musculus with 6 samples.

Results

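AP-1 is a family of leucine-zipper transcription factors that bind DNA as pairs. The 9 genes described here are 3 Jun-family genes (Jun, Junb, Jund), 4 Fos-family genes (Fos, Fosb, Fosl1, Fosl2) and the related partners Atf3 and Batf3. They are a list of named AP-1 genes, chosen by the measured Jun level of young replicate 2, which was already known to be far above the others, and make up 9 of the 21485 genes that all 6 count tables share. Values of that sample against the others are therefore given as a description, with no test.

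Jun proteins can pair with each other or with a Fos-family protein, whereas Fos proteins need a Jun-family partner. The pairs bind the heptamer TGACTCA or the octamer TGACGTCA near their target genes. Several members, Fos, Fosb, Jun, Junb and Atf3 among them, are immediate-early genes, switched on within minutes by growth factors or stress through the JNK and ERK kinases, and enzymatic dissociation of muscle is known to induce them. In myoblasts, AP-1 and Jun are known for promoting proliferation and for opposing Myod1 and the differentiation programme.

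The cells were muscle-derived stem/progenitor cells (MDSPCs), the slowly adhering cells that remain after dissociated mouse skeletal muscle is preplated 6 times. Per the labels, 3 populations came from young mice and 3 from old mice. All 6 carried no stated genetic change or treatment and grew in the same proliferation medium on collagen before droplet-based 3′ single-cell RNA sequencing, so the levels are those of cultured cells, not of cells in muscle. Ages, sex, strain and the number of mice behind each population are not given in the labels.

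Each population is 1 sample. After filtering, 8674 to 12541 cells per sample were kept, with median depths of 13001 to 19951 UMIs (unique molecular identifiers, tags that count each captured RNA molecule once), and 23 to 35 barcodes were shared by any pair of libraries. The labelled cell type was checked against marker genes: the summed level of 7 myogenic markers ran from 176 to 3606 CPM (a gene's UMIs scaled to a common library total) over the samples, and that of 6 fibro-adipogenic markers from 203 to 455 CPM. Gsn (135 to 303 CPM) gave the largest part of the latter sum in every sample. Col3a1 was at 12.8 to 132 CPM, Ly6a at 2.76 to 121 and Smoc2 at 1.18 to 103. Pdgfra (0.0363 to 1.88 CPM) and Dcn (0.243 to 1.58 CPM) were low in all 6 samples. The 4 macrophage and immune markers summed to 1.33 to 9.07 CPM. The 4 endothelial markers summed to 0.609 to 1.44 CPM in 5 samples and to 59.5 CPM in young replicate 2, where Tek alone, a gene that lies near Jun, gave 59.1 CPM.

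Promoter sequence was looked at first, because AP-1 genes are known to be regulated by their own products. RefSeq promoter windows on GRCm38.p6 were matched for 8 of the 9 genes (not Fosl1). The 250 bases before each start were searched on both strands for TGACTCA, TGACGTCA, TGACATCA (the octamer variant known from the Jun promoter) and TGACGT, which is the start of TGACGTCA and overlaps it. Only Jun, Fos and Atf3 held a match, and their last 110 bases before the start are shown 5′ to 3′ on the gene's own strand, with the match in capitals. The Jun window is chr4:95052223-95052332 on the minus strand, the Fos window chr12:85473780-85473889 on the plus strand and the Atf3 window chr1:191183334-191183443 on the minus strand.
Jun: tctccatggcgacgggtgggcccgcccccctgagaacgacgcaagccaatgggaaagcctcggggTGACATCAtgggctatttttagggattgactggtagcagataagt
Fos: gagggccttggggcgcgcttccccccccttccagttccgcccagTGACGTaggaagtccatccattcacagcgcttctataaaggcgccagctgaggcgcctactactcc
Atf3: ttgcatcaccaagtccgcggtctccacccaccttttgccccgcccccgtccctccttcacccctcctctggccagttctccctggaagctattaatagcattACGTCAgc

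The Jun match was TGACATCA, beginning 45 bases before the start. The Fos match was TGACGT, 66 bases before the start, and the Atf3 match was the same hexamer on the other strand, 8 bases before the start. The RefSeq start used for Atf3 lies inside its annotated gene (chr1:191170296-191218039) and is not the gene's outermost start. Among the genes without a match, the windows of Fosl2 (chr5:32136222-32136521) and Batf3 (chr1:191098164-191098463) also lie inside the annotated genes. That of Jund (chr8:70697489-70697788) lies wholly before the annotated gene start (70698949). A missing match therefore refers to the RefSeq windows only. Of all 32851 promoter windows, 2.93% held TGACATCA, 6.47% held TGACGT, 4.46% held TGACTCA and 1.55% held TGACGTCA on either strand, so each match is one of many in the genome. The windows are given to place the 3 genes whose levels are described next. No measurement here bears on binding at these letters.

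Among the Jun-family genes, Jun (chr4:95049034-95052222 on GRCm38, minus strand) encodes the strongest transactivator of the family. With libraries scaled by TMM, young replicates 1 to 3 measured 127, 2974 and 72.7 CPM of Jun. Old replicates 1 to 3 measured 140, 117 and 137 CPM. Young replicate 2 therefore stood 23.5-fold above the median of the other 5 samples, which lay within a factor of 1.93 of each other, and all 3 old samples fell inside the young range. With each cell thinned at random to 5000 UMIs, 98.6% of cells in young replicate 2 held a Jun UMI (95% Wilson interval 98.3 to 98.8, counting error only), against 29.3% to 47.5% in the other samples. Those cells held a median of 13 Jun UMIs, with a 10th percentile of 4 and a 90th percentile of 27, while the mean in the other samples was 0.394 to 0.77 UMIs. Free RNA was not subtracted from these counts, and no cell class known to lack Jun was defined here.

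Junb, which opposes Jun at many proliferation genes, was at 69.2, 109 and 61.6 CPM in young replicates 1 to 3, against 75.1, 100.4 and 158 CPM in their old counterparts. Jund, the constitutive and growth-restraining member, was at 170, 405 and 159 CPM in the young populations, against 137, 557 and 494 CPM in the old. For Jund the samples formed a low set (young replicates 1 and 3 and old replicate 1, all at or below 170 CPM) and a high set (the other 3, all at or above 405 CPM). The same high set had the highest myogenic marker sums, 1572 to 3606 CPM against 176 to 372 CPM, and the part of those cells in the Jund level across samples was not tested.

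Among the Fos-family genes, the classical immediate-early members were nearly silent. Fos (chr12:85473890-85477273, plus strand), the prototype partner of Jun, was at 2.30, 0.82 and 3.93 CPM in the young populations, against 1.76, 5.49 and 3.83 CPM in the old. Fosb, its close relative, was at 2.53, 0.218 and 3.12 CPM (young) and 2.49, 2.68 and 0.934 CPM (old). The lowest value of both genes was that of young replicate 2, the sample with the most Jun. That sample also lay below all others for 17.3% of all tested genes. At 5000 UMIs per cell, 0.479% to 2.35% of cells held a Fos UMI and 0.132% to 1.67% a Fosb UMI.

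Fosl1 (FRA-1; chr19:5447547-5455946, plus strand), a late-responding member without a transactivation domain of its own, carried most of the Fos-family UMIs in 5 of 6 samples. It was at 111, 41.5 and 39.3 CPM in the young populations, against 102, 25.5 and 39.9 CPM in the old, so the replicates numbered 1 in both groups, the ones counted on the shorter gene list, were highest. Fosl2 (FRA-2), the other late member, was at 21.5, 25.0 and 13.0 CPM (young) and 17.4, 43.4 and 19.2 CPM (old). Fosl1 made up 61.5% to 82.5% of the summed Fos-family UMIs in 5 samples and 33.1% in old replicate 2, where Fosl2 made up 56.3%. Fos and Fosb together never exceeded 11.9%. These are shares of 3′-end UMIs, one tag per captured molecule and not divided by length, and capture can differ between genes.

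The ATF and BATF members were low. Atf3, a stress-induced repressor, was at 5.02, 3.49 and 0.924 CPM (young) and 2.15, 2.36 and 0.644 CPM (old). Batf3, which lacks a transactivation domain and is known from dendritic cells, was at 0.318, 0.270 and 0.186 CPM (young) and 0.781, 0.949 and 0.516 CPM (old). Batf3 was the only member whose young and old values did not overlap, which held for 6.05% of all tested genes. Few cells held it: 7 to 42 cells per sample had a UMI of it at 5000 UMIs per cell. Free RNA can give such counts, and no cell class known to lack Batf3 was defined here against which to set them.

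**Figure D1:**
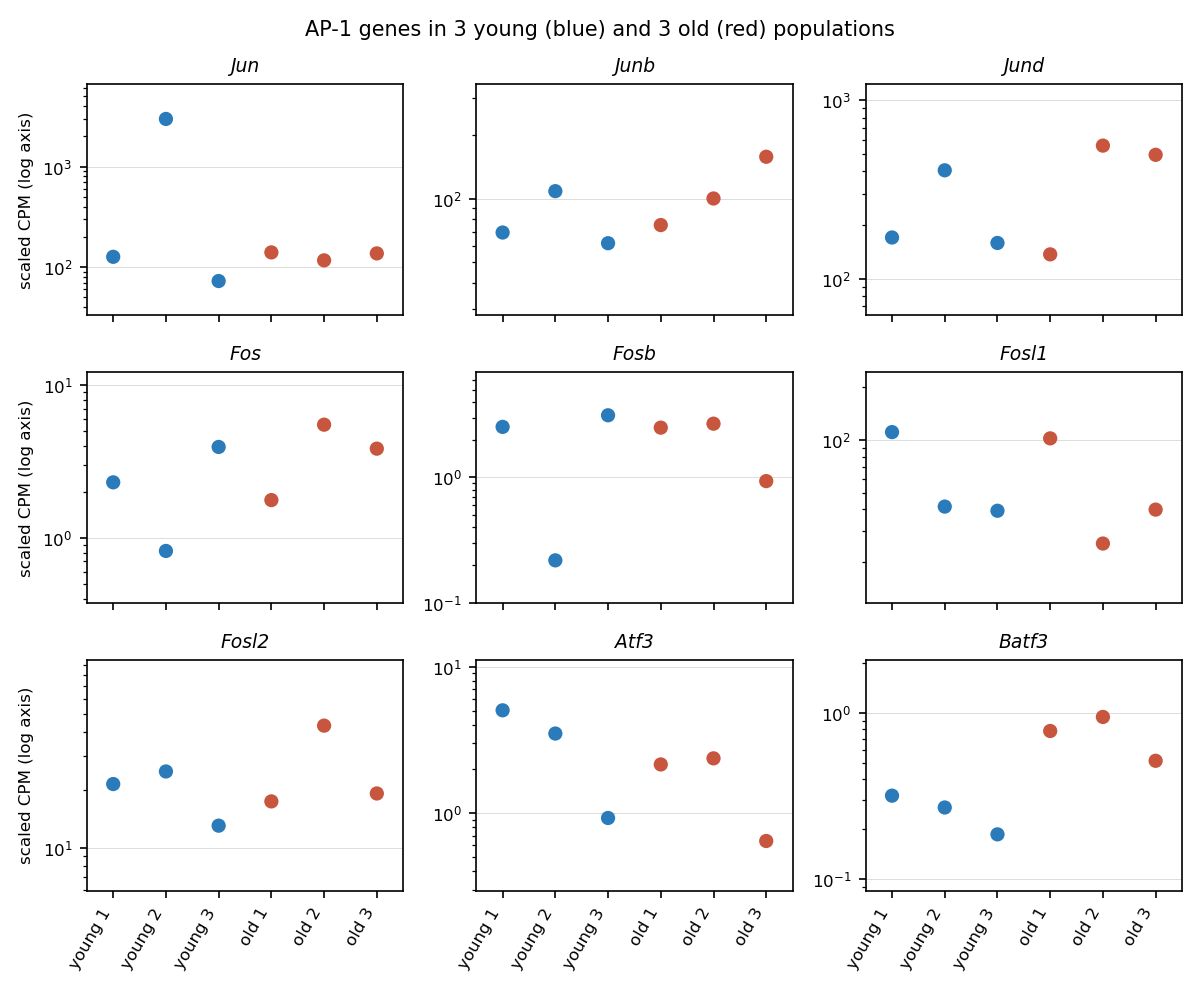
TMM-scaled CPM (log axis, its own range in each panel) of the 9 AP-1 genes in each of the 3 young (blue) and 3 old (red) populations; each point is 1 sample. Jun stands at 2974 CPM in young replicate 2 and between 72.7 and 140 CPM elsewhere. Fos and Fosb are lowest in that same sample, as 17.3% of all tested genes are. Of the 9 genes only Batf3 separates young from old without overlap, as 6.05% of all tested genes do.

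Old and young populations were compared to ask whether AP-1 expression differs with donor age. None of the 9 members passed an adjusted p of 0.05 in edgeR's quasi-likelihood test on summed counts, with a term for the gene list, and 1 of 14512 genes did (0.00689% of those tested). At an unadjusted p under 0.05 the test gave 512 genes, and DESeq2 called 219 genes, with no member among them. Of the members, Batf3 alone was under 0.05 unadjusted in edgeR (in DESeq2 also Jun, unadjusted p = 0.0373), at 1.55 ± 0.59 (log2 old over young ± SE, 3 against 3; unadjusted p = 0.0401, edgeR adjusted p = 1.00), and values that do not overlap between the groups occurred for 6.05% of all tested genes.

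For Jun the old-over-young log2 difference was -2.49 ± 1.60, and it became 0.50 without young replicate 2, so its direction rested on that sample. Junb (0.44 ± 0.33), Jund (0.50 ± 0.46), Fos (0.53 ± 0.73), Fosb (0.07 ± 1.00) and Fosl2 (0.38 ± 0.46) had values above 0, and Fosl1 (-0.24 ± 0.24) and Atf3 (-0.78 ± 0.77) below 0. With SEs this large relative to the differences, changes of 2-fold could have gone undetected for most members. Of the related lists, no gene passed the test among 9 tested related bZIP genes, 14 immediate-early genes, 14 MAP kinase pathway genes, 12 negative regulators or 16 genes known as AP-1 targets. Their median log2 differences were 0.12, -0.01, -0.04, -0.12 and 0.32, beside -0.01 over all tested genes.

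The members were then compared between cell states within samples. Cells with 2 or more UMIs of Myog, the transcription factor that marks myoblasts committed to differentiation, were compared with cells that had none, both at 5000 UMIs per cell. The comparison used full counts summed by class in the 5 samples with at least 50 such cells. Young replicates 1 to 3 had 201, 1546 and 250 Myog-positive cells, and old replicates 2 and 3 had 840 and 4361. Old replicate 1 had 35 and was left out. Old replicate 3 holds most of these cells, but each sample counts once as a pair of classes in the fit.

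Fosl1 was lower in Myog-positive cells in 5 of 5 samples. Its level in Myog-positive against Myog-negative cells was 35.4 against 110 CPM in young replicate 1, 16.8 against 45.9 in young replicate 2 and 14.4 against 40.3 in young replicate 3. In old replicates 2 and 3 it was 6.31 against 27.2 and 20.2 against 52.9 CPM. The log2 difference was -1.58 ± 0.12 (edgeR adjusted p = 0.000434). Every Myog-positive value lay below the Myog-negative value of its own sample, at 0.232 to 0.381 times that value.

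Junb was higher in Myog-positive cells in 5 of 5 samples, by 0.77 ± 0.10 on the log2 scale (edgeR adjusted p = 0.00173). Its level rose from 66.6 to 111 CPM in young replicate 1, from 92.9 to 184 in young replicate 2 and from 61.0 to 98.6 in young replicate 3. In old replicates 2 and 3 it rose from 88.2 to 165 and from 142 to 185 CPM. The rise was smallest in old replicate 3, at 1.30-fold, and largest in young replicate 2, at 1.98-fold.

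Thus 1 of 9 members rose, against 16.5% of all 13345 genes tested, and 1 of 9 fell, against 21.4%, so the number of members called was near or below the background. The classes overlap with division phase: 23.2% to 68.7% of Myog-positive cells had no UMI of 12 G2/M genes, against 5.21% to 33.7% of Myog-negative cells, with the higher share in the Myog-positive cells of each of the 5 samples. When only cells with no G2/M UMI were used, a setting added after the data were seen, Fosl1 (-2.25, edgeR adjusted p = 0.000121) and Junb (0.84, edgeR adjusted p = 0.00158) kept their directions and calls, with Batf3 no longer tested.

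Jun moved in opposite directions in different samples. In young replicate 2 it was 1739 CPM in Myog-positive and 3182 CPM in Myog-negative cells, a ratio of 0.546. In the other 4 samples it was higher in Myog-positive cells, at 210 against 122 CPM in young replicate 1, 106 against 72.2 in young replicate 3, 141 against 109 in old replicate 2 and 144 against 131 in old replicate 3. Over all 5 samples the log2 difference was 0.22 ± 0.23 (edgeR adjusted p = 0.488). Without young replicate 2 it was 0.46 with an edgeR adjusted p of 0.0243.

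Of the other members, Fos (0.58 ± 0.27), Jund (0.25 ± 0.10), Batf3 (0.95 ± 0.42), Atf3 (0.38 ± 0.25) and Fosl2 (0.04 ± 0.10) had values above 0 and Fosb (-0.51 ± 0.21) below 0, with none passing. Without young replicate 3, Jund (0.33, adjusted p = 0.0348) and Fos (0.79, adjusted p = 0.0414) passed edgeR's threshold, which brought the members called from 2 to 4. In that fit 2309 of all 13406 tested genes rose and 2727 fell. Fosb was lower in 5 of 5 samples, on only 2 to 42 UMIs per sample in Myog-positive cells. It passed in edgeR where a single Myog UMI sufficed (-0.62, adjusted p = 0.0227). That fit also included old replicate 1, which had 65 such cells.

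The genes known as AP-1 targets fell in Myog-positive cells in 9 of 14 tested cases and rose in none, with a median log2 difference of -0.74 beside -0.06 over all tested genes. Among them were Ccnd1, the G1 cyclin D1 (-1.33), Ezr, a membrane-to-actin linker (-1.31), and Plaur, the urokinase receptor (-1.30). The 6 fibro-adipogenic markers also had lower values in Myog-positive cells, with a median log2 difference of -1.21; 2 of them fell in edgeR (Pdgfra, -1.75; Smoc2, -1.32) and none rose. The part of cells with these markers in the target genes' differences was not tested. Of 14 immediate-early genes, 6 fell, among them Ier3 (-1.87), Myc (-1.13), Klf6 (-0.77) and Ier2 (-0.61), and Egr1, a serum-response transcription factor, rose (1.19). In the MAP kinase pathway, 3 of 14 genes rose, the JNK gene Mapk8 (0.40) and the ERK kinases Map2k1 (0.32) and Map2k2 (0.23). A further 4 fell, among them the ETS factor Elk3 (-1.07) and the ERK gene Mapk3 (-0.58). Of 12 negative regulators, 3 fell, with Dusp5 (-1.57) and Dusp4 (-0.73), phosphatases that act on ERK, the ones named by rule. Of 8 tested related bZIP genes, 1 fell and none rose. Over all genes tested 16.5% rose and 21.4% fell, and the counts in the MAP kinase, negative regulator and bZIP lists, near or below these shares, are no result about those lists.

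Cells were also compared by division phase, as 5 or more summed UMIs of 12 G2/M genes such as Mki67, Top2a and Cdk1 against none. All 6 samples entered. Fosl1 was higher in G2/M-high cells in 6 of 6 samples, by 0.97 ± 0.14 (edgeR adjusted p = 0.000561). Its level was 131 against 86.1 CPM in young replicate 1, 49.2 against 25.5 in young replicate 2 and 42.5 against 20.2 in young replicate 3. In old replicates 1, 2 and 3 it was 111 against 79.0, 40.2 against 13.3 and 46.4 against 21.0 CPM. The smallest ratio was 1.40, in old replicate 1, and the largest 3.02, in old replicate 2.

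Jund fell in 6 of 6 samples by 0.44 ± 0.07 on the log2 scale (edgeR adjusted p = 0.000441). Its ratio of G2/M-high to G2/M-zero cells ran from 0.612 in young replicate 1 to 0.880 in old replicate 2. Fosl2 (-0.48 ± 0.10, edgeR adjusted p = 0.00258) and Atf3 (-0.86 ± 0.17, edgeR adjusted p = 0.00249) were also lower in 6 of 6 samples. Junb fell in 5 of 6 samples by 0.25 ± 0.09 (edgeR adjusted p = 0.0434), a call that was lost without young replicate 2 (-0.15, adjusted p = 0.141) and without each of the 3 old replicates in turn (adjusted p = 0.0521 to 0.118). In edgeR it was also lost with no filter on low counts (adjusted p = 0.0845) and without the deepest cells (adjusted p = 0.051). Jun showed a difference of -0.01 ± 0.05 (edgeR adjusted p = 0.893), with 3 samples above and 3 below, and Fos one of -0.45 ± 0.17 (edgeR adjusted p = 0.051). Fos passed with DESeq2 (adjusted p = 0.0373) and in edgeR with RLE scaling (adjusted p = 0.0493), without the deepest cells (0.0277), with a limit of 10 G2/M UMIs (0.0291) and without young replicate 1 (0.0405).

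In G2/M-high cells, 1 of 9 members rose, against 22.2% of 13145 genes tested, and 4 of 9 fell, against 26.9%. Of the 7 myogenic markers, 5 also fell in G2/M-high cells and none rose, with a median log2 difference of -1.01. In cells with no Myog UMI, a setting added after the data were seen, Fosl1 (0.74, edgeR adjusted p = 0.00103) was still higher and Junb did not pass (-0.15, adjusted p = 0.162). Batf3 passed there (1.36, adjusted p = 0.0144) and also without young replicate 2 (1.54, adjusted p = 0.0156), from 0.94 ± 0.49 in all cells and samples. These Batf3 values rest on few UMIs. Over all 6 samples its G2/M-zero cells held 73 UMIs, 48 of them in old replicate 2. Young replicates 1 and 3 and old replicates 1 and 3 had 2, 2, 2 and 3. In the fits without such changes of cells or samples, Fosl1 had the largest log2 difference in both contrasts among the members that passed: lower in Myog-positive and higher in G2/M-high cells. Batf3, which passed only under such changes, is outside this ranking.

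Of the AP-1 target list, 4 of 14 genes rose in G2/M-high cells, namely the EGF-family ligand Areg (0.84), Ezr (0.52), Plaur (0.41) and the metalloprotease inhibitor Timp1 (0.19), and 1 fell, the haem oxygenase Hmox1 (-0.46). Of 14 immediate-early genes, 3 rose (Ier5, 0.54; Klf4, 0.25; Klf6, 0.16) and 5 fell, with Egr1 (-0.88) and Dusp1 (-0.34) the ones named by rule. Among 12 negative regulators, 1 rose and 5 fell, including Spry2 (-0.44) and Dusp10 (-0.43). In the MAP kinase pathway only Elk1 of 14 genes passed (-0.42). Of 8 related bZIP genes, Maf (-1.27) and Mafk (-0.43) fell. Over all genes tested 22.2% rose and 26.9% fell, and nothing is read from these counts about the lists. A test of whether the class differences varied with age, as an interaction term in edgeR, called 0 of the 9 members in either contrast, where it called 0.00749% of all tested genes for the Myog classes and 0% for the G2/M classes. Unadjusted p-values of the members were 0.177 or higher.

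**Figure D2:**
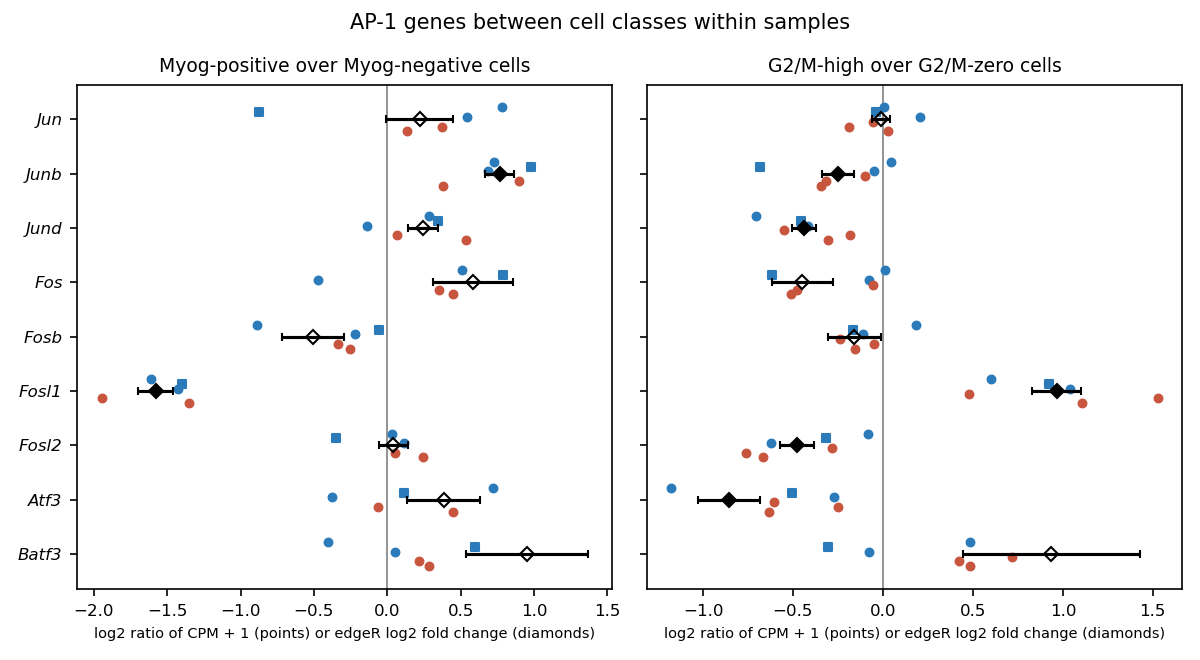
Each small point is 1 sample's log2 ratio of CPM + 1 between cell classes (blue young, red old, squares young replicate 2), and each diamond the edgeR log2 fold change with its SE, filled where the adjusted p is under 0.05. Fosl1 lies at -1.58 in Myog-positive cells and 0.97 in G2/M-high cells, Junb at 0.77 in Myog-positive cells, and the young replicate 2 square of Jun lies at -0.87 while its 4 other Jun points lie above 0.

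Co-expression was examined over cells within each sample, as Pearson's r of log counts at 5000 UMIs per cell over 8444 to 12168 cells. Cells of a sample share its library, so r is a description and has no p. Of the 36 pairs of members, none had a median r over the 6 samples above 0.05. Jun with Junb had the highest (0.0458, range -0.131 to 0.0568), followed by Fos with Fosb (0.0406), Jund with Atf3 (0.034) and Jun with Fosl1 (0.0335). Jun with Fos, the classical pair, had a median r of 0.00745 (range -0.0433 to 0.019). Correlations this weak in sparse counts are no finding in either direction. Cells with UMIs of both Jun and Fos made up 0.355% to 1.06% of cells per sample, whereas 19.3% to 38.6% held a UMI of at least 1 Jun-family and 1 Fos-family gene.

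The genes most like a member, by median r over the 6 samples among 6244 or 6245 genes detected at a mean of 0.05 UMIs per cell or more, also had low values. For Fosl1 they were Ptma (0.12), H2afz (0.109), Ranbp1 (0.101), Tagln2 (0.1) and H3f3b (0.0897), each positive in 6 of 6 samples, with a 95th percentile of 0.0301 over all ranked genes. For Jun they were Tpm1 (0.0686), Runx1 (0.0678), Ankrd1 (0.0649), Ncl (0.0636) and Hmga2 (0.0583). Tpm1 had an r of -0.311 in young replicate 2 and 0.0482 to 0.104 elsewhere. For Fos they were Junb (0.0291), Ier2 (0.0287), Ccn1 (0.0262), Tcim (0.0242) and Jund (0.0202), whereas Jun, Fosl1 and Fosl2 had 0.00745, 0.00355 and -0.00502. Nothing is read from values this low.

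Young replicate 2 was then set against the other samples, gene by gene, to see whether Jun's partners differ where Jun is far higher. This sample is 1 library, so the values are a description. Jun, whose level in this sample chose the members, was 23.5-fold above the median of the other 5 samples and is not set beside a background. Of the other members, only Jund was 2-fold or more above that median (2.38-fold), where 11.7% of 14512 genes were. Fos (0.214) and Fosb (0.0863) were 2-fold or more below it, where 12.6% of genes were. Jund remained within the range of the other samples, and Fos and Fosb lay below it, as 17.3% of all tested genes did. Fosl1 (1.04), Fosl2 (1.30), Junb (1.45), Atf3 (1.63) and Batf3 (0.523) were within 2-fold and within the range of the other samples. Summed over each family, the Jun-family genes other than Jun reached 513 CPM in young replicate 2, between the 212 and 657 CPM of the other samples, and the Fos family 67.6 CPM, between 59.4 and 137 CPM.

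Of 9 tested related bZIP genes, 3 were 2-fold or more higher, Maf (3.54-fold, within the range of the others), Jdp2, a repressor that pairs with Jun (2.75-fold, 104 CPM), and Atf7 (2.37-fold). Of 14 immediate-early genes, 2 were higher, Dusp1 (5.52-fold, 104 CPM) and Ier5 (3.19-fold), and 4 lower, among them Klf2 (0.071), Ier3 (0.277) and Ier2 (0.439). Of 12 negative regulators, 3 were higher, with Dusp10, a phosphatase of JNK and p38, at 5.24-fold, Spry2 at 2.07-fold and Dusp5 at 2.05-fold, the last 2 within the range of the other samples, and 2 were lower, including Dusp6 (0.463). None of the 14 MAP kinase pathway genes was 2-fold higher, and 1 was lower. Beside the 11.7% and 12.6% of all tested genes that were 2-fold or more higher and lower, these counts are given as a description and are no result about the lists.

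Of 16 genes known as AP-1 targets, 10 were 2-fold or more below the other samples' median, where 12.6% of all tested genes were, and 1 was above, where 11.7% were. Their median fold was 0.384 beside 1.00 over all tested genes. Young replicate 2 also had a myogenic marker sum of 2172 CPM, against 176 to 372 CPM in 3 of the other samples, 1572 CPM in old replicate 2 and 3606 CPM in old replicate 3. In those 2 old samples Hmox1 (700 and 405 CPM) and Ccnd1 (315 and 334 CPM) were above their levels in young replicate 2. Between cell classes, 9 of 14 tested target genes fell in Myog-positive cells. The part of myogenic cells in these folds was not tested. Among the lower genes were Hmox1 (92.7 CPM against 134 to 700 CPM elsewhere), Areg (10.9 against 4.31 to 102 CPM) and Ccnd1 (132 against 315 to 703 CPM). Hmox1 and Ccnd1 lay below all other samples, and Areg within their range.

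**Figure D3:**
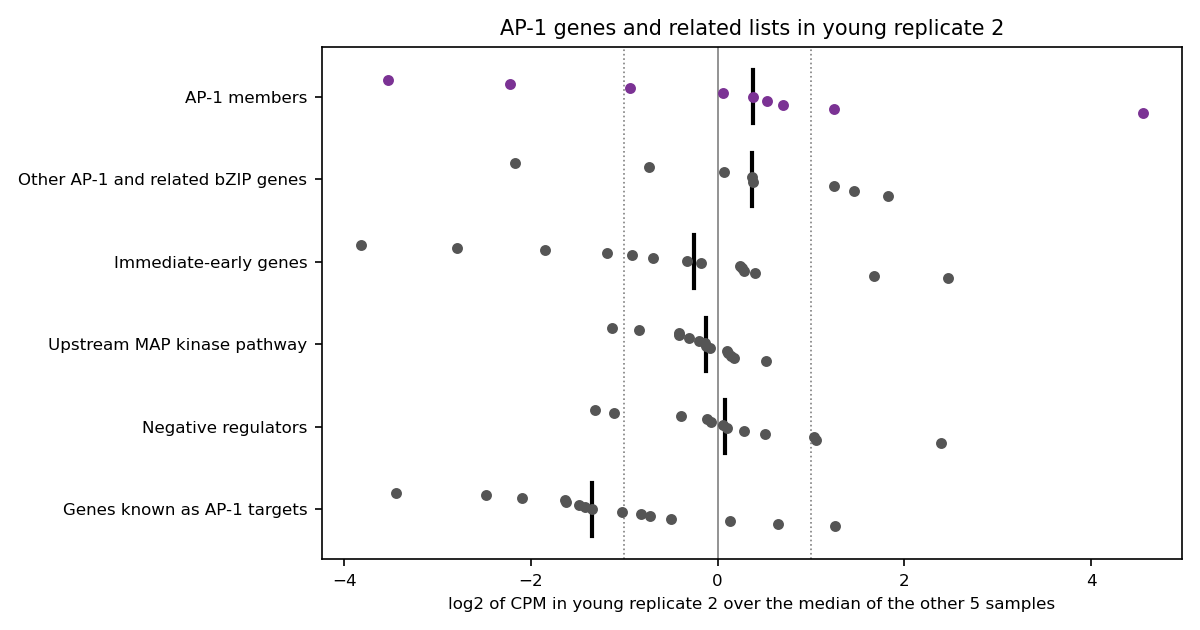
Log2 of the CPM in young replicate 2 over the median of the other 5 samples for each tested gene of 6 lists (points), with the list's median (bar) and 2-fold limits (dotted); genes at 0 in young replicate 2 are not drawn. The members spread from Fosb at -3.53 to Jun at 4.55, and the AP-1 target list has its median below the lower limit.

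Within young replicate 2, cells differed widely in Jun. At 5000 UMIs per cell, the 2661 cells with the most Jun UMIs held a mean of 27.0 and the 2661 with the fewest 4.51. Between those sets Junb was lower in the Jun-high cells, at 0.446 against 0.778 UMIs per cell, and Jund nearly equal, at 2.06 against 2.05. Fosl2 (0.181 against 0.0864) and Fosl1 (0.246 against 0.140) were higher in the Jun-high cells. The other members rested on few UMIs. Fos (0.00263 against 0.00864), Fosb (0 against 0.00188) and Batf3 (0.000376 against 0.00225) were lower there, and Atf3 (0.0244 against 0.0139) was higher. Of the immediate-early genes, Dusp1 (0.779 against 0.312) and Myc (0.162 against 0.0635) had higher means in the Jun-high cells and Egr1 a lower one (0.0398 against 0.102). These examples were chosen after their values were seen. In this sample Jun was also lower in Myog-positive cells, where Junb was higher and Fosl1 lower, and the part of those cells in these differences was not tested. Across all cells of that sample the r of Jun was -0.131 with Junb, 0.1 with Fosl1, 0.0918 with Fosl2, 0.194 with Dusp1 and -0.0433 with Fos.

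Jun's high level in young replicate 2 came with those of its chromosomal neighbours. It was 1 of 9 consecutive tested genes on chromosome 4, from Caap1 to Fggy (94500081 to 95926939 on GRCm38), that were all 20-fold or more above the other samples' median, at 23.5-fold to 46.1-fold, with Tek, near 0 elsewhere, at 244-fold. Among all tested genes 112 passed 20-fold (0.772%), and no other run of such genes was longer than 3. Jun's level in this sample chose the members, and its fold is the lowest of the 9. The share and the run length are therefore a description, and nothing more is read from them. Over the cells of young replicate 2, Jun's r was 0.603 with Plaa, 0.56 with Mysm1, 0.551 with Ift74, 0.523 with Caap1 and 0.506 with Fggy. With Tek, Lrrc19 and Eqtn, which had fewer UMIs, it was 0.247, 0.187 and 0.101. In any other sample r was 0.0427 or less with each of these neighbours. Counts were sparser there, with Plaa at 0.283 to 0.472 UMIs per cell against 9.92 in young replicate 2. Values of r at such unlike counts cannot be compared. All 9 genes were lower in Myog-positive than in Myog-negative cells of that sample, Jun least (0.546 times) and Tek most (0.262 times).

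**Figure D4:**
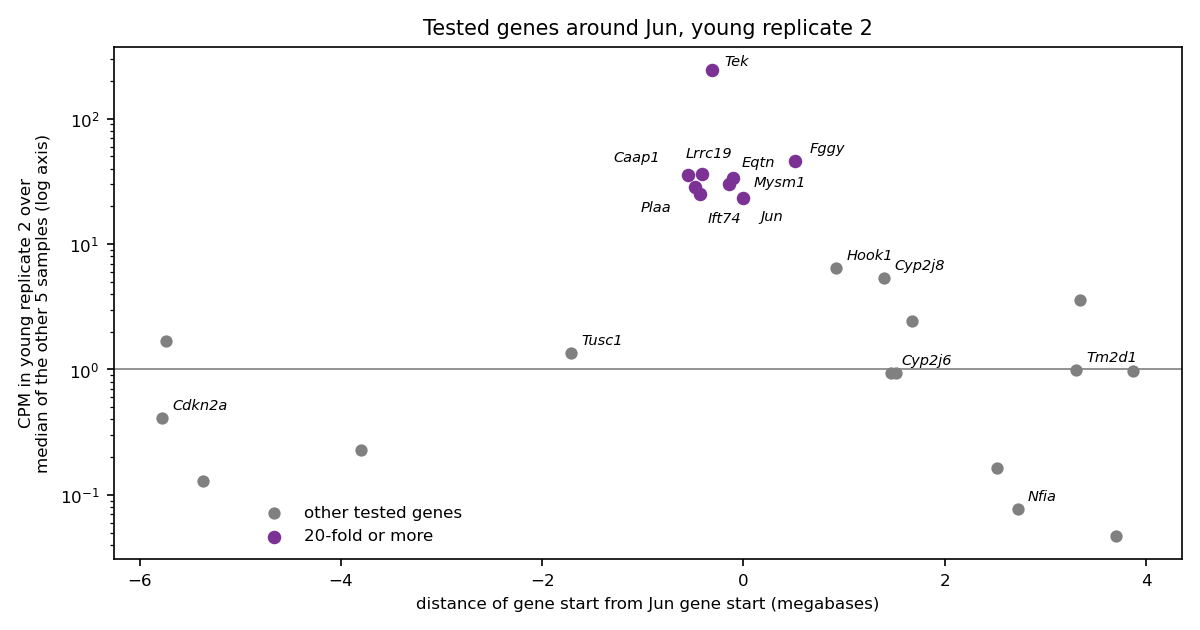
CPM in young replicate 2 over the median of the other 5 samples (log axis) for Jun and the 12 nearest tested genes on each side, against the distance between gene starts. The 9 genes at 20-fold or more (purple) are consecutive, and the nearest tested genes outside them, Tusc1 at 1.36-fold and Hook1 at 6.41-fold from 0.333 CPM, stand below.

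**Figure D5:**
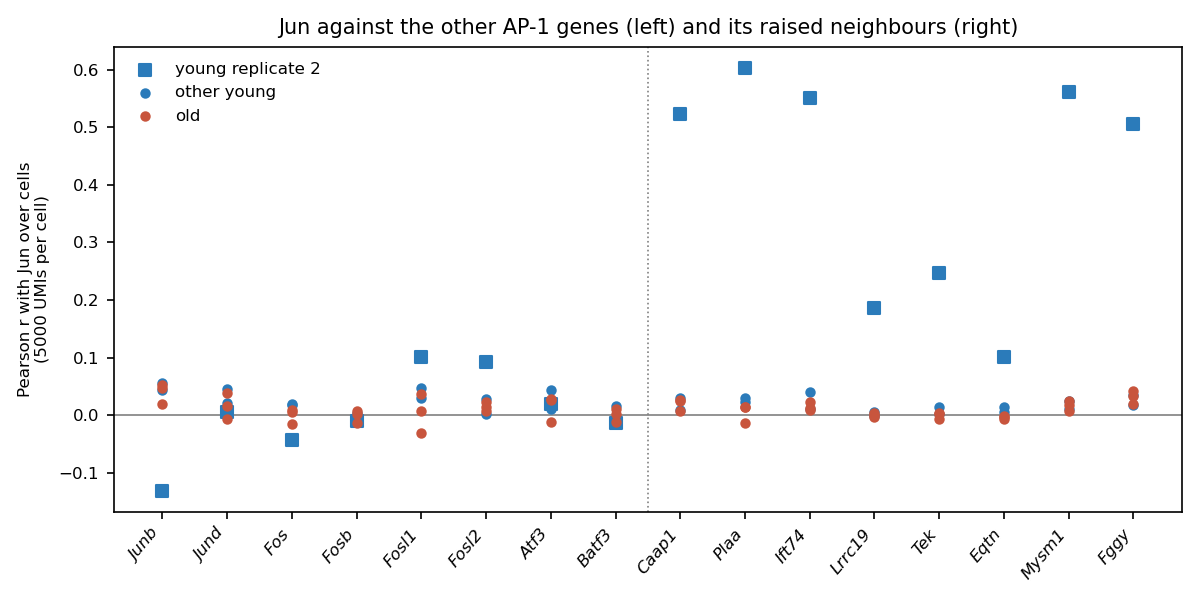
Pearson's r with Jun over cells thinned to 5000 UMIs, for the 8 other AP-1 genes (left of the dotted line) and the 8 raised neighbours (right), 1 point per sample. On the right, the squares of young replicate 2 run from 0.101 for Eqtn to 0.603 for Plaa. On the left they stay between -0.131 for Junb and 0.1 for Fosl1, where the other samples lie between -0.0308 and 0.0568.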

How the data were processed

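Single-cell 3′ RNA libraries of 3 young and 3 old MDSPC populations were analysed, as grouped by the labels. The authors deposited raw UMI counts per gene and barcode from Cell Ranger, version 7.0.0 for both replicates numbered 1 and 7.2.0 for the others per the file headers; the submitters' processing notes name 7.2.0 and mm10. The former used a list of 21849 features, the latter one of 32285, and the 21485 shared identifiers were used. Intron counting, strand setting and cell calling are not given in the sources used here.

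A barcode counted as a cell from 1000 UMIs and 500 genes upward if under 15% of its UMIs were mitochondrial, which held for 61673 of 62849 barcodes. Doublets were not called; the deepest 10% of cells were left out as an alternative. Shares of cells, classes and correlations used cells thinned to 5000 UMIs, leaving out 1368 shallower cells. The G2/M score summed Mki67, Top2a, Cdk1, Ccnb1, Ccnb2, Cenpf, Cenpe, Aurka, Plk1, Ube2c, Birc5 and Tpx2.

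Counts summed per sample, or per sample and class, entered edgeR 4.0.16 under R 4.3.3 (filterByExpr, TMM, robust quasi-likelihood, two-sided, Benjamini-Hochberg adjustment over all genes), with terms for gene list and age, or for sample and class. SEs are model-based. The labels call the samples biological replicates. Code was tested on simulated counts. Alternatives included RLE scaling, DESeq2 1.42.0, no filter, other class limits and leaving out each replicate.

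The members and lists were chosen with earlier results of these data known. All 9 members are named; from each list, up to 4 genes per direction with the largest change among those with an adjusted p under 0.05 and a mean log2 CPM above 3 are named, and for young replicate 2 up to 4 past 2-fold with 10 CPM or more in a sample. The values of 2 listed genes are not reported here. Other genes in the comparison of Jun-high with Jun-low cells were named after their values were seen. Positions are from GENCODE M21 (GRCm38) and promoters from RefSeq.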

Additional observations from a re-analysis of the deposited data

Results flagged for a closer look

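Junos, a transcript on the strand opposite to Jun that overlaps the Jun gene by 689 bases (it spans 95051534 to 95167318 on chromosome 4 of GRCm38), is on the longer gene list only and entered none of the comparisons. It was flagged because it gave counts above the 3 that a count of 0 allows in all 4 samples on that list. It had 42334 counts in young replicate 2, 1998 in young replicate 3, 729 in old replicate 2 and 1240 in old replicate 3. A UMI of it was found in 87.2% of cells of young replicate 2, 15.6% of young replicate 3, 7.93% of old replicate 2 and 9.15% of old replicate 3. Since the sources used here do not give the strand setting of the counting, reads of Jun and Junos in the overlap cannot be told apart.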

How the results depend on the processing

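No alternative that was run called an AP-1 member between old and young. The genes called there went from 1 to 219 with DESeq2, to 0 on the longer gene list only and to 0 with no gene list term, and ranged from 0 to 3 when single replicates were left out. With the replicate number as a block, edgeR called 1 gene and no member, and the log2 difference of Jun was -0.84. Same-numbered samples correlated at 0.396, 0.281 and -0.108 in their deviations from the group means, so the numbers were not taken to pair the samples. Leaving out single replicates moved the old-over-young log2 difference of Jun between -3.59 and 0.50, of Fos between -0.045 and 1.19, of Fosb between -0.49 and 1.63 and of Fosl2 between -0.12 and 0.72, each change of sign being without young replicate 2 or old replicate 2. The cause of these changes was not tested.

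Between Myog classes, leaving out single replicates gave 2 to 4 called members. With 2 called (without old replicate 2), 1526 of all 13334 tested genes rose and 1823 fell. With 4 called (without young replicate 3), 2309 of 13406 rose and 2727 fell. Fosl2 ranged from -0.054 to 0.13. Fosl2 also turned to -0.0056 with no filter, -0.029 with a limit of 1 Myog UMI and -0.035 in G2/M-zero cells. Between G2/M classes, 4 to 6 members were called over all alternatives. With 4 called (without old replicate 3), 2713 of all 13140 tested genes rose and 3124 fell. With 6 called (DESeq2), 2711 of 13145 rose and 3866 fell, so the numbers of members are not read as a result. Jun lay between -0.049 and 0.026 without single replicates, at 0.024 with no filter, 0.0011 without the deepest cells and 0.00043 in Myog-zero cells. Fosl1 kept its direction and call in both contrasts under every alternative run.

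Depth limits the shares of cells with a UMI. Medians over samples without thinning were 74.7% for Jun, 64.2% for Junb, 3.44% for Fos, 3.45% for Fosb, 44.0% for Fosl1, 22.6% for Fosl2, 3.45% for Atf3 and 0.574% for Batf3. Junb had 23.1% at 3000 UMIs and 47.1% at 8000 UMIs, and at 8000 UMIs Fos had 2.14% and Fosb 1.88%. The correlation of Jun with Fos had a median from -0.0026 to 0.021 over its alternatives. In young replicate 2, 3 members were past 3-fold in either direction (14.7% of all tested genes were), 6 past 1.5-fold (38.6%) and 4 or 5 past 2-fold under other scalings, references or cell filters (21.7% to 27.6%). These counts include Jun, whose level chose the members, so they are no result beside those shares. Doublets remain in the data, free RNA was not subtracted, and each age group holds 3 populations.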
